A study of Mus musculus with 24 samples.

Results

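The transcripts described here carry no gene name on the array. Each is named in the probe annotation by a stretch of the mouse genome and a strand, such as chr5:14943275-14944205_F, where F marks the forward and R the reverse strand. Members were all probes outside controls whose name gives an autosome, a start, an end and a strand, and which the authors kept in their processed table. Of 4275 such probes on the array, 2055 were kept, out of 32595 probes kept in all and 56605 probes outside controls on the array. These 2055 probes stand for 1926 named regions, or 1672 stretches when both strands are counted once, because 112 names have more than 1 probe and 254 stretches were measured on both strands. The strand and position belong to the array's design, so a region is a place where transcription was measured and not an annotated gene.

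The study asked how hepatocyte p110α shapes the liver's transcriptional response to feeding and fasting. RNA from the liver of 24 male mice aged 12 weeks was hybridised, 1 array per mouse, in 4 groups of 6. All mice carried floxed alleles of Pik3ca, the gene of p110α, a catalytic subunit of phosphoinositide 3-kinase that acts downstream of the insulin receptor. LWT_Fed and LWT_Fasted are littermates without Cre, and in LKO_Fed and LKO_Fasted a Cre transgene under the albumin promoter deletes exons 18 to 19. The background is C57BL/6J in all groups. Fed mice ate ad libitum, fasted mice had no food for 24 h, and all were killed at ZT16, that is 16 h after lights on. Albumin-Cre acts in hepatocytes, so other liver cells of LKO mice keep the gene. Because whole liver was used, fewer cells of a type and less RNA per cell cannot be told apart in any result below.

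Much of the mammalian genome outside protein-coding genes is transcribed. Long intergenic noncoding RNAs are products of this transcription, often spliced and polyadenylated, often low in abundance and more restricted to tissues than messenger RNAs. Some, such as Neat1, the scaffold of nuclear paraspeckles, have known roles, while most have none assigned. A region called intergenic can also hold an unannotated end of a neighbouring gene, transcription on the strand opposite to a gene, or a repeat that occurs at many places in the genome.

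Both strands were about equally represented, with 1004 forward and 1051 reverse probes. Chromosome 1 held the most members at 161 and chromosome 19 the fewest at 47, and the share of designed probes that were kept ranged from 39.1% on chromosome 13 to 57.0% on chromosome 14. Regions were 67 to 533972 bases long with a median of 11394. By the probe positions in the files, 270 members (13.1%) had a probe of a RefSeq gene inside the region, 152 of them on the same strand. The stretch between probes of 1 gene was overlapped by 95 members, most of them the same ones, so that 285 had either and 1770 neither. Where no gene probe lay inside, the nearest was a median of 19605 bases away.

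The probes of some of the regions described below are shown here first. Sequences are the 60 bases printed on the array, 5′ to 3′, as the files give them, and positions are those of the whole region in mm9. The first set holds 6 of the 8 regions with the widest gap in signal as read between LKO_Fasted replicates 1 and 2 and replicates 3 to 6, where a low side not well above background leaves the order open. Capitals mark runs of alternating C and A.
chr5:14943275-14944205_F: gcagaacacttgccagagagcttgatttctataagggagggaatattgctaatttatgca
chr5:15146475-15170100_F: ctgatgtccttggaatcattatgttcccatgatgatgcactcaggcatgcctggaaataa
chr5:15033568-15033987_F: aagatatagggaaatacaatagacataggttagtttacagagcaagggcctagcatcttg
chr11:60728207-60745369_R: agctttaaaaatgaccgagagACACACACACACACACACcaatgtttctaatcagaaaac
chr8:59966759-59989065_R: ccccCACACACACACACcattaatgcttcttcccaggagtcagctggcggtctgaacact
chr2:181650800-181669350_R: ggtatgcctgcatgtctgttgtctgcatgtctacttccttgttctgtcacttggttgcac

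The second set changed with fasting or with genotype and is shown without capitals.
chr19:5771425-5848475_F: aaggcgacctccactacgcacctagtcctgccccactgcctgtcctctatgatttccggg
chr6:31037606-31037912_R: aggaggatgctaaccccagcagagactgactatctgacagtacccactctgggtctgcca
chr6:31007184-31007725_R: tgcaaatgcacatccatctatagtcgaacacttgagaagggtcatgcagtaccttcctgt
chr1:59449275-59474025_F: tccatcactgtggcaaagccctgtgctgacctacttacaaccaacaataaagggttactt
chr11:35805295-35817263_F: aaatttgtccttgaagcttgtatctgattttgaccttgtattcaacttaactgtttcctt
chr17:35080914-35090009_F: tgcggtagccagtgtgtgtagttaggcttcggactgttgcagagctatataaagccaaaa
chr17:35080914-35090009_R: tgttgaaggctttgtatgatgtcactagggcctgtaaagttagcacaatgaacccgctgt

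The region probes had lower signals than all 32595 kept probes, with median levels of 6.77 and 8.05 (log2), and were less often detected. Signals of different probes depend on their sequence, so this does not rank abundance. The files mark whether a spot is well above its local background, and 1495 region probes (72.8%) were so on all 24 arrays, against 83.6% of all 32595 probes. None was below that mark on every array. On single arrays the share of region probes well above background ran from 83.8% to 98.2%, and LKO_Fasted replicates 1 and 2 had 97.1% and 98.2%, above the 89.3% to 92.1% of LKO_Fasted replicates 3 to 6. By the array barcodes, arrays in row 1 of a slide had 92.1% to 98.2% and arrays in row 2 had 83.8% to 93.2%. LKO_Fasted replicates 1 to 3 were in row 1 and replicates 4 to 6 in row 2. Row was not in the fit, and its part was not tested. Over all spots the share was 54.7% to 63.0%, and the median signal of an array was 69 to 88.5 units.

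These arrays set LKO_Fasted replicates 1 and 2 apart from the others of their group for part of the probes, and several results below are also given without them. The arrays carry the labelled tissue's markers: all 6 hepatocyte markers were well above background on every array, with a mean level of 17.3 to 17.7 (log2). The mean level of 5 Kupffer and myeloid markers was 10.3 and 11.0 in LKO_Fasted replicates 1 and 2 and 10.6 to 12.8 in replicates 3 to 6. Markers of endothelium (10.6 to 11.5), stellate cells (9.63 to 10.5) and B and T cells (7.26 to 7.98) covered these ranges over all 24 arrays, and LKO_Fasted replicates 1 and 2 lay within the ranges of the other arrays. Erythroid markers were at 13.0 and 14.3 in these 2 replicates, on either side of the 13.5 to 13.7 of replicates 3 to 6. Of 5 pancreas markers only Cela1 was measured, at 13.3 to 13.9 in LWT_Fed, 12.7 to 13.7 in LWT_Fasted, 12.8 to 13.8 in LKO_Fed and 11.8 to 12.5 in LKO_Fasted, below all other mice, and its part in the results for LKO_Fasted was not tested. Adipose markers were lower in LKO_Fed, at 6.21 to 6.48, than in LWT_Fed, at 6.67 to 7.36, and their part in the differences between these groups was not tested. Of these 4 markers 1 was well above background on all 6 LKO_Fed arrays and 3 on all 6 LWT_Fed arrays, so the LKO_Fed levels are near background. In fasted mice they were at 6.41 to 7.95 in LWT and 6.20 to 6.80 in LKO. The place of the Pik3ca probe relative to the deleted exons was not examined, so it does not check the labels, and LKO means the arrays labelled so. Its log2 fold change, LKO against LWT, was 0.58 ± 0.11 (SE, adjusted p = 0.00149, limma) in fed mice, higher in LKO and just short of the fold minimum, and -0.02 ± 0.12 in fasted mice (adjusted p = 0.926). The Pik3ca interaction was called, at -0.60 ± 0.16 (adjusted p = 0.0302).

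Fewer of the region probes responded to fasting than of the array as a whole, whereas in fed mice more of them were higher in LKO. Calls needed an adjusted p no higher than 0.05 together with a change of more than 1.5-fold. In LWT, fasting changed 97 region probes (4.72%) against 9.04% of all probes, 62 higher and 35 lower, where 4.42% and 4.62% of all probes rose and fell. In LKO, fasting changed 135 (6.57%) against 11.8%, 66 higher and 69 lower against 5.7% and 6.09%. This balance moved with the scaling, to 63 higher and 98 lower with median centring and 121 and 177 with the processed signal. In the fed state 90 differed between LKO and LWT (4.38% against 3.11%), 74 higher in LKO (3.6% against 2.06%) and 16 lower (0.779% against 1.05%), or 90 and 12 with median centring and 165 and 18 with the processed signal. In the fasted state 47 differed (2.29% against 3.56%), 23 higher and 24 lower against 1.56% and 2.0%. The fasting change itself differed between genotypes, as an interaction, for 35 (1.7% against 2.67%), 15 with a more positive change in LKO and 20 with a more negative one, against 1.36% and 1.31%. Without LKO_Fasted replicates 1 and 2 the interaction had 108 (5.26% against 4.68%), so which of these shares is larger rests on those arrays, and leaving out 1 array at a time gave 20 to 84. Calls whose groups of 6 arrays did not overlap numbered 73, 89, 81 and 28 in the first 4 comparisons, against 7.48%, 9.39%, 2.46% and 2.03% of all probes. The median log2 fold change over all 2055 was between -0.04 and 0.02 in the 5 comparisons, and over all probes between -0.01 and 0.00. These shares describe the set and were not tested against each other.

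**Figure D1:**
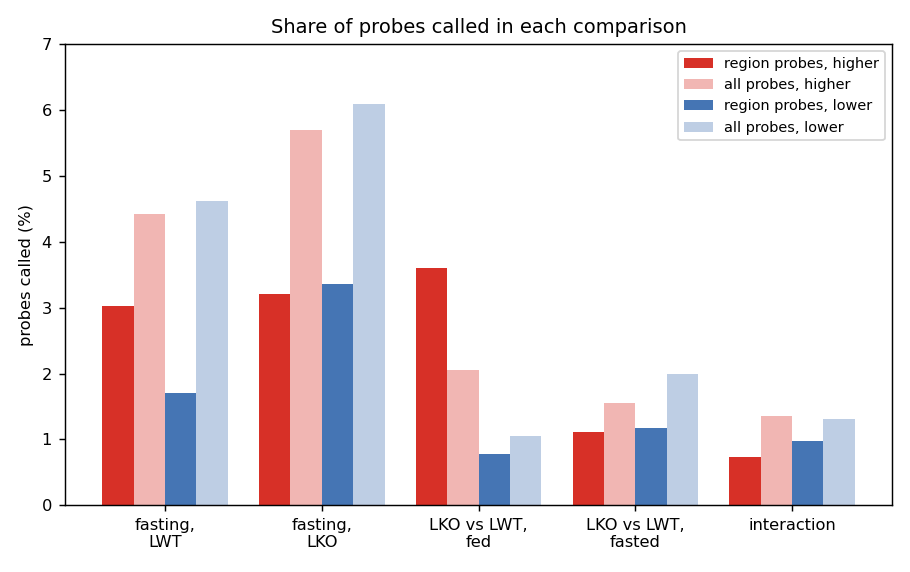
Share of probes called (percent) in each of the 5 comparisons, for the 2055 region probes (dark bars) and for all 32595 probes (light bars), with higher in red and lower in blue. The region probes exceed the array as a whole only among probes higher in LKO_Fed, 3.6% against 2.06%.

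Calls were spread over strands and chromosomes. Among forward probes 4.88% and among reverse probes 4.57% were called for fasting in LWT, with 7.07% and 6.09% in LKO and 4.58% and 4.19% between genotypes in fed mice. By chromosome the share called for fasting in LWT ran from 1% on chromosome 12 to 9.21% on chromosome 16, whose share in LKO of 14.5% was also the highest. For the genotype in fed mice it ran from 0.746% on chromosome 17 to 9.64% on chromosome 7. With 47 to 161 probes per chromosome these shares rest on few calls, 14 at most for fasting in LWT.

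Probes of 1 name were not always called together. Of 17 called probes for fasting in LWT that had another kept probe of the same name, that other probe was called the same way in 6. The counts were 10 of 21 for fasting in LKO, 2 of 8 for the genotype in fed mice, 4 of 12 in fasted mice and 4 of 9 for the interaction. Of the stretches measured on both strands, 1, 2, 3, 1 and 1 were called on both strands in these comparisons, each time in 1 direction, and 19, 29, 15, 11 and 7 on 1 strand only. Differences between probes of 1 name were not tested, and a probe that was not called may have moved the same way.

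The share called was also given by place. Where a gene probe lay inside the region or a gene spanned it, 16 of 285 (5.61%) were called for fasting in LWT, and 81 of 1770 (4.58%) where neither held. For the genotype in fed mice the shares were 3.51% and 4.52%. Over 117 regions with a gene probe inside on the same strand, the fold changes of region and gene gave a Pearson r of 0.43 for fasting in LWT, 0.48 in LKO, 0.20 for the genotype in fed and 0.42 in fasted mice. Both members of each pair share the arrays, and these values are across regions, which are not independent replicates.

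Among regions that rose on fasting in both genotypes, a pair on the reverse strand of chromosome 6 stood close together. At chr6:31037606-31037912_R, 307 bases long and 77611 bases from the nearest probe of Lncpint, a long noncoding RNA, levels in LWT_Fed were 5.74 at the lowest, 5.97 at the median and 6.27 at the highest. In LWT_Fasted they were 7.44, 7.59 and 8.04, in LKO_Fed 5.72, 6.01 and 6.23, and in LKO_Fasted 7.71, 8.03 and 8.19. In each fed group 4 of 6 arrays were well above background. All 12 fasted mice lay above all 12 fed mice, with a rise of 1.69 ± 0.11 (SE, log2) in LWT (adjusted p = 1.01e-10, limma), against 1.99 ± 0.12 in LKO (adjusted p = 2.95e-11). The second, chr6:31007184-31007725_R, rose by 1.44 ± 0.16 in LWT (adjusted p = 2.92e-07), against 1.28 ± 0.18 in LKO (adjusted p = 4.17e-06). Its levels were 6.49, 6.75 and 6.90 in LWT_Fed and 7.80, 8.26 and 8.35 in LWT_Fasted, and 6.83, 7.10 and 7.70 in LKO_Fed and 7.98, 8.54 and 9.24 in LKO_Fasted, so fed and fasted mice did not overlap in either genotype. Its nearest gene by probe position is Klf14, a zinc finger transcription factor, 100925 bases away. The 2 kept Lncpint probes rose by 0.67 ± 0.10 and 0.78 ± 0.19 in LWT and changed by 0.44 ± 0.11 and 0.27 ± 0.21 in LKO, where neither was called.

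Other regions rose on fasting with a spread that differed between genotypes. chr3:21973306-21974266_R, 1812 bases from Tbl1xr1, which encodes part of a nuclear corepressor complex, rose by 1.54 ± 0.20 in LWT (adjusted p = 2.22e-06), against 1.57 ± 0.22 in LKO (adjusted p = 5.19e-06). LWT_Fasted (9.43 to 10.3) did not overlap LWT_Fed (8.04 to 8.28), while LKO_Fasted (7.88 to 10.2) overlapped LKO_Fed (7.65 to 8.48). Both kept Tbl1xr1 probes, on the opposite strand, rose as well, by 0.65 and 0.75 in LWT and 0.98 each in LKO. chr16:90103524-90104408_R rose by 1.60 ± 0.23 in LWT and 0.75 ± 0.25 in LKO, with an interaction of -0.84 ± 0.34 that was not called (adjusted p = 0.142). chr5:136129679-136148860_R, well above background on 3 of 6 LWT_Fed arrays, rose in LWT by 1.35 ± 0.25 (adjusted p = 0.000133), a change without an exact size. Its change in LKO of 0.26 ± 0.27 was not called, and the difference between these changes was not called either (adjusted p = 0.0745). In fasted mice this region was called lower in LKO, at -1.06 ± 0.27 (adjusted p = 0.00734), though LWT_Fasted and LKO_Fasted overlapped.

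**Figure D2:**
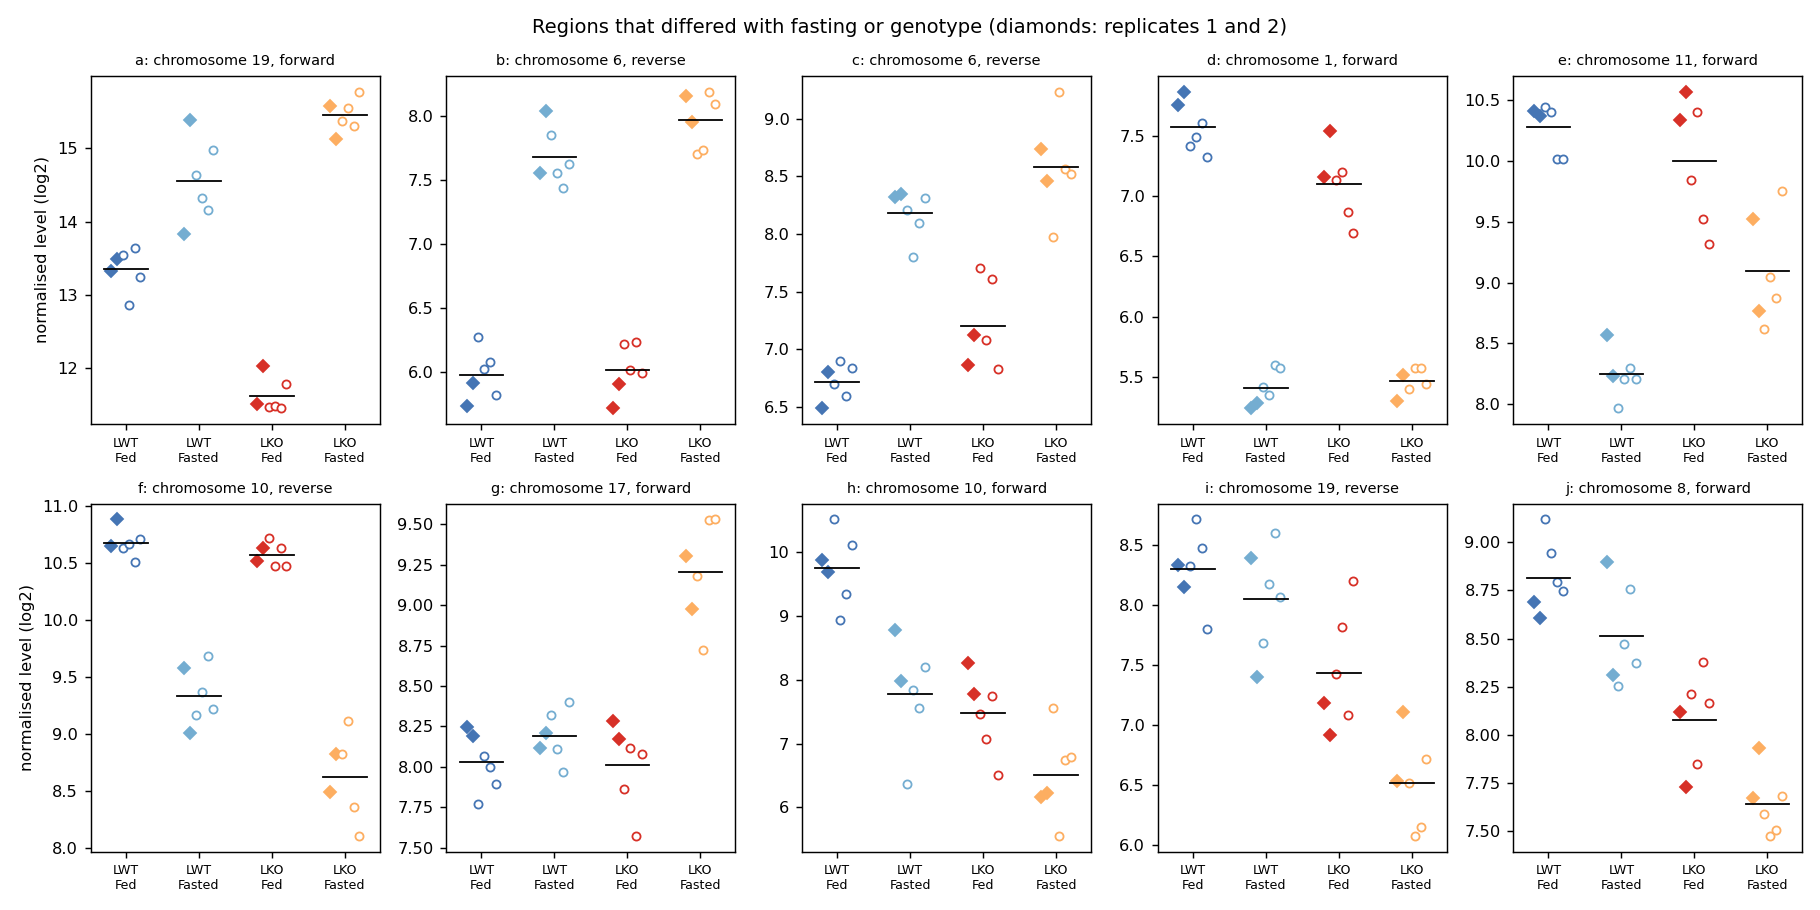
Normalised level (log2) on each of the 24 arrays, by group, with the group mean as a line and replicates 1 and 2 as diamonds. Panels are chr19:5771425-5848475_F (a), chr6:31037606-31037912_R (b), chr6:31007184-31007725_R (c), chr1:59449275-59474025_F (d), chr11:35805295-35817263_F (e), chr10:116814196-116920696_R (f), chr17:35080914-35090009_F (g), chr10:92547995-92556102_F (h), chr19:36699712-36763966_R (i) and chr8:40100925-40196350_F (j), and in panel b all fasted mice lie above all fed mice.

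1 region that fell on fasting was not well above background in any fasted mouse. At chr1:59449275-59474025_F, all 12 fed mice were well above background and none of the 12 fasted mice was. Levels were 7.32, 7.55 and 7.87 (lowest, median, highest) in LWT_Fed and 5.24, 5.39 and 5.60 in LWT_Fasted, and 6.70, 7.14 and 7.54 in LKO_Fed and 5.30, 5.48 and 5.58 in LKO_Fasted. Since the fasted signal has only a bound, the region was at least 3.87-fold lower in LWT_Fasted (adjusted p = 3.62e-12) and at least 2.75-fold lower in LKO_Fasted (adjusted p = 4.35e-10). These bounds set the fed mean against the dimmest signal that counts as well above background on each fasted array. A probe of the predicted gene Gm33724 lies inside this region on the opposite strand.

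Several regions fell on fasting by different amounts in LWT and LKO. chr11:35805295-35817263_F, 3372 bases from a probe of Tenm2, a teneurin cell adhesion gene on the other strand, went from 10.01, 10.39 and 10.44 in LWT_Fed to 7.97, 8.22 and 8.57 in LWT_Fasted, a fall of 2.02 ± 0.19 (log2 change -2.02, adjusted p = 2.61e-08). In LKO it went from 9.32, 10.09 and 10.57 to 8.62, 8.96 and 9.75, a change of -0.97 ± 0.21 (adjusted p = 0.00073). The interaction of 1.05 ± 0.28 was called (adjusted p = 0.0269), but not when any 1 of LWT_Fed replicate 5, LKO_Fed replicates 3 and 5, LWT_Fasted replicate 3 and LKO_Fasted replicate 6 was left out. chr8:126268510-126290810_R, whose probe also holds a short CA run, fell by 1.44 ± 0.13 in LWT (log2 change -1.44, adjusted p = 2.18e-08) and changed by -0.73 ± 0.15 in LKO (adjusted p = 0.000374). Its interaction of 0.71 ± 0.20 (adjusted p = 0.0327) became 0.46 ± 0.17 (adjusted p = 0.089) without LKO_Fasted replicates 1 and 2.

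chr10:116814196-116920696_R went the other way, with a wider fall in LKO. Its levels were 10.5, 10.7 and 10.9 in LWT_Fed and 9.01, 9.29 and 9.68 in LWT_Fasted, and 10.5, 10.6 and 10.7 in LKO_Fed and 8.10, 8.65 and 9.11 in LKO_Fasted. The change was -1.30 ± 0.12 in LWT (adjusted p = 2.35e-08), against -2.01 ± 0.13 in LKO (adjusted p = 1.18e-10), with an interaction of -0.71 ± 0.18 (adjusted p = 0.0193). A second probe of this region on the same strand changed by 0.23 ± 0.15 and -0.26 ± 0.17 and was not called for fasting. The nearest gene is Cpsf6, a factor of messenger RNA 3′ end processing, none of whose 4 kept probes was called for fasting.

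2 further regions had 2 probes that moved in 1 direction. At chr6:129151512-129208737_R, 8960 bases from a probe of Cd69, an activation antigen of lymphocytes, levels were 8.93, 9.23 and 9.70 in LKO_Fed and 6.64, 7.54 and 7.83 in LKO_Fasted, without overlap. The change was -1.74 ± 0.15 in LKO (adjusted p = 6.98e-09) and -0.49 ± 0.14 in LWT, with an interaction of -1.25 ± 0.21 (adjusted p = 0.000896). Its second probe changed by -1.08 ± 0.12 in LKO and -0.46 ± 0.11 in LWT, and was called in LKO and for the interaction of -0.62 ± 0.16. At chr16:23543837-23560153_F, 53515 bases from Rtp4, an interferon-induced gene, the change was -0.69 ± 0.09 in LWT (adjusted p = 1.41e-06), against -1.51 ± 0.09 in LKO (adjusted p = 5.98e-11), and its second probe changed by -0.29 ± 0.07 and -0.80 ± 0.08. The interaction of the first was -0.82 ± 0.13 (adjusted p = 0.000565). Rtp4 itself changed by -0.86 ± 0.13 in LWT and -0.46 ± 0.15 in LKO.

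chr2:119697845-119719245_F and chr10:92547995-92556102_F fell in LWT with a wide spread between mice. The first went from 7.24, 8.53 and 9.45 in LWT_Fed to 6.06, 6.36 and 6.78 in LWT_Fasted, a change of -1.84 ± 0.30 (adjusted p = 4.69e-05), and changed by -0.42 ± 0.34 in LKO. The difference between these, 1.42 ± 0.45, was not called with all arrays (adjusted p = 0.0604) and was called without LKO_Fasted replicates 1 and 2, at 1.57 ± 0.47 (adjusted p = 0.0379). The second was at 8.93, 9.78 and 10.5 in LWT_Fed, 6.36, 7.91 and 8.77 in LWT_Fasted, 6.51, 7.61 and 8.27 in LKO_Fed and 5.55, 6.48 and 7.55 in LKO_Fasted. All LKO_Fed mice lay below all LWT_Fed mice, a difference of -2.09 ± 0.35 (adjusted p = 0.000457), which was the largest fall with genotype in fed mice. The fasted difference of -1.12 ± 0.37 (adjusted p = 0.0376) was not called without LKO_Fasted replicates 1 and 2 (-0.99 ± 0.43, adjusted p = 0.129).

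A probe in the Neat1 stretch of chromosome 19 showed the largest rise on fasting in LKO. At chr19:5771425-5848475_F, levels were 12.9, 13.4 and 13.6 (lowest, median, highest) in LWT_Fed, 13.8, 14.5 and 15.4 in LWT_Fasted, 11.4, 11.5 and 12.0 in LKO_Fed and 15.1, 15.5 and 15.8 in LKO_Fasted. LKO_Fed mice were the lowest and LKO_Fasted mice the highest on average, and only LWT_Fasted and LKO_Fasted overlapped. Fasting raised the region by 1.17 ± 0.15 in LWT (adjusted p = 2.12e-06), against 3.86 ± 0.17 in LKO (adjusted p = 2.2e-13), and the interaction was 2.69 ± 0.22 (adjusted p = 7.37e-07). LKO was below LWT when fed, at -1.73 ± 0.15 (adjusted p = 6.58e-07), and above it when fasted, at 0.96 ± 0.16 (adjusted p = 0.00027).

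The probe lies on the strand opposite to Neat1, 870 bases from the nearest Neat1 probe, and its neighbours did not share this pattern. The 2 Neat1 probes changed on fasting by 0.12 ± 0.10 and 0.14 ± 0.12 in LWT and by 0.23 ± 0.11 and 0.09 ± 0.13 in LKO, and were not called in any comparison. A second probe of the same region and strand changed by 0.32 ± 0.13 in LWT and 0.08 ± 0.14 in LKO and was not called either. On the strand of Neat1, 8183 bases from its probes, chr19:5834117-5835940_R rose in LWT by 1.09 ± 0.27 (adjusted p = 0.00282), with levels of 12.4, 12.7 and 13.5 in LWT_Fed and 12.5, 13.8 and 14.1 in LWT_Fasted, which overlap. In LKO its change was -0.29 ± 0.30. The interaction of -1.38 ± 0.41 (adjusted p = 0.0433) was lost under 23 of the alternatives tried, 18 of them leaving out 1 array, so this call is weak.

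**Figure D3:**
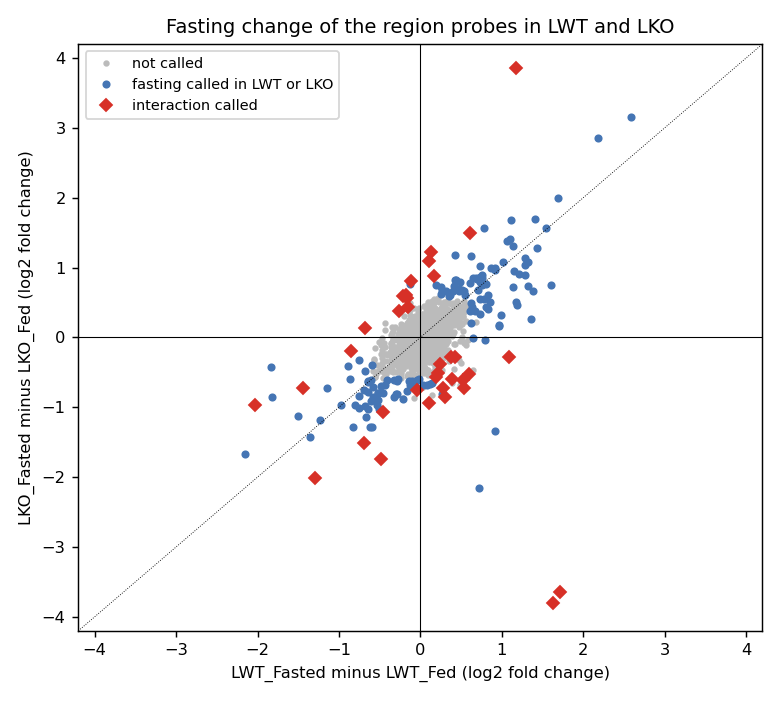
Fasting change (log2 fold change) of the 2055 region probes in LWT (x axis) and LKO (y axis), with called fasting changes in blue, called interactions as red diamonds and a dotted line of equal change. The highest red diamond is chr19:5771425-5848475_F at 1.17 and 3.86, and the 2 lowest are chr5:14943275-14944205_F and chr5:15146475-15170100_F, which rest on LKO_Fasted arrays that split.

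Of the 97 region probes called for fasting in LWT and the 135 in LKO, 66 were shared, all in the same direction. They make up 68.0% of the first list and 48.9% of the second. The overlap over all probes was not counted, so these shares are not read as particular to the regions. The comparisons use different mice, but a probe past the threshold in 1 genotype only is not shown to differ, and 35 passed the test of that difference.

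A stretch on chromosome 17 rose on fasting in LKO on both strands. chr17:35080914-35090009_F was at 7.77, 8.03 and 8.25 in LWT_Fed, 7.97, 8.16 and 8.40 in LWT_Fasted, 7.57, 8.10 and 8.28 in LKO_Fed and 8.72, 9.24 and 9.53 in LKO_Fasted, so LKO_Fasted lay above all other mice. chr17:35080914-35090009_R was at 6.96, 7.14 and 7.30 in LWT_Fed, 6.95, 7.23 and 7.49 in LWT_Fasted, 6.98, 7.10 and 7.30 in LKO_Fed and 7.71, 8.13 and 8.65 in LKO_Fasted, with the same order. In LKO the forward probe rose by 1.23 ± 0.13 (adjusted p = 9.79e-08) and the reverse probe by 1.09 ± 0.13 (adjusted p = 4.13e-07). Their changes in LWT were 0.13 ± 0.12 and 0.11 ± 0.11, and both interactions were called, at 1.09 ± 0.17 (adjusted p = 0.000662) and 0.98 ± 0.17 (adjusted p = 0.00138). 1110038B12Rik, with a probe inside the region on the reverse strand, rose in both genotypes, by 0.61 ± 0.09 and 0.91 ± 0.10, and a second reverse probe of the region changed by 0.40 ± 0.08 and 0.50 ± 0.08, so the pattern was not shared by every probe there.

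3 more regions were higher in LKO_Fasted than in LWT_Fasted. chr7:13533925-13544525_F was well above background on 6 LKO_Fasted arrays, 1 LKO_Fed array and no LWT array. Its LKO_Fasted levels were 5.96, 6.40 and 7.17, at least 1.78-fold above LWT_Fasted (adjusted p = 4.5e-06), and the interaction was called (adjusted p = 0.00125), with no settled size since the other 3 groups were at or near background. chr12:25852471-25852681_F was at 6.78, 7.11 and 9.04 in LKO_Fasted and 6.09, 6.42 and 6.73 in LWT_Fasted, a difference of 1.02 ± 0.26 (adjusted p = 0.00751). Its highest value is LKO_Fasted replicate 6, 1.62 above the next, and without that array the difference was 0.64. chr1:85323303-85337483_F had the largest increase in LKO in the fasted state, 1.48 ± 0.27 (adjusted p = 0.000441), with LKO_Fasted at 9.64, 10.3 and 10.9 and LWT_Fasted at 7.87, 8.87 and 9.19. In fed mice it differed by 0.74 ± 0.25 (adjusted p = 0.0497), which was not called without LKO_Fasted replicates 1 and 2 (adjusted p = 0.0526).

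Several regions were lower in LKO whatever the feeding state. 2 probes of chr6:122741562-122743423_R, on 1 strand and 51734 bases from Foxj2, a forkhead gene, differed between genotypes by similar amounts at unlike levels, with LWT_Fed means of 13.6 and 10.9. The first was at 13.4, 13.6 and 13.9 in LWT_Fed, 13.2, 13.5 and 13.9 in LWT_Fasted, 12.5, 12.6 and 12.8 in LKO_Fed and 12.4, 12.7 and 12.8 in LKO_Fasted, so all 12 LKO mice lay below all 12 LWT mice. It was lower in LKO by 1.04 ± 0.10 when fed (log2 difference -1.04, adjusted p = 9.85e-07) and 0.69 ± 0.10 when fasted (-0.69, adjusted p = 6.19e-05). The second was 2.00-fold lower when fed (adjusted p = 3.54e-06) and 1.72-fold lower when fasted (adjusted p = 4.24e-05). The kept probe of Foxj2, on the other strand, differed by -0.01 ± 0.06 and -0.16 ± 0.06 and was not called.

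chr8:40100925-40196350_F lies on the strand of Tusc3, which encodes a subunit of the oligosaccharyltransferase complex, with Tusc3 probes inside it. Its levels were 8.61, 8.77 and 9.12 in LWT_Fed against 7.73, 8.14 and 8.38 in LKO_Fed, and 8.25, 8.42 and 8.90 in LWT_Fasted against 7.48, 7.63 and 7.93 in LKO_Fasted, without overlap in either state. The difference was -0.71 ± 0.12 (adjusted p = 0.000359) and -0.87 ± 0.12 (adjusted p = 4.31e-05). The 2 Tusc3 probes differed by -0.78 ± 0.11 and -0.68 ± 0.10 in fed and -0.89 ± 0.11 and -0.82 ± 0.10 in fasted mice, all called, while a second region probe on that strand differed by 0.16 ± 0.09 and 0.07 ± 0.09.

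3 more regions were lower in LKO without such a partner. chr19:36699712-36763966_R, 4547 bases from Hectd2, a ubiquitin ligase gene on the other strand, was at 7.40, 8.12 and 8.60 in LWT_Fasted and 6.08, 6.53 and 7.11 in LKO_Fasted, a difference of -1.55 ± 0.22 (adjusted p = 3.98e-05) and the largest decrease in the fasted state. chr8:67542714-67561694_F, 5643 bases from Trim61, differed by -0.66 ± 0.11 in fed (adjusted p = 0.000424) and -0.87 ± 0.12 in fasted mice (adjusted p = 2.26e-05), without overlap in either. chr9:78107225-78118850_F differed by -1.49 ± 0.42 in fed mice (adjusted p = 0.02), with LWT_Fed at 9.15, 10.2 and 11.1 and LKO_Fed at 8.81 at the median and 9.04 at the highest, a call that was lost without LWT_Fed replicate 5.

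Between genotypes, 11 probes passed in fed as well as fasted mice, which is 12.2% of the 90 called in fed and 23.4% of the 47 called in fasted mice, and 10 of the 11 had 1 direction in both. Here too the overlap over all probes was not counted, and nothing particular to the regions is read from it. In the fed list, most of the higher probes belong to the regions that follow.

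Of the 2055 region probes, 77 put LKO_Fasted replicates 1 and 2 both above all of replicates 3 to 6, with a gap of over 1.5-fold between the nearest arrays. That is 3.75% of region probes, against 1.57% of all 32595. Another 4 put them below by as much (0.195% against 0.092%). With a gap of over 2-fold the counts were 30 (0.742% of all probes) and 2 (0.0123%). With any gap they were 346 and 272, or 3510 and 3862 over all probes. The last members inside the threshold had gaps of 0.590 and 0.586 on the log2 scale, and the first outside it 0.582 and 0.581. These counts describe the 6 arrays that define the split and carry no test.

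The 77 lie on 18 chromosomes, none on chromosome 17, with 32 on the forward and 45 on the reverse strand. Chromosome 7 held the most, 9 of its 83 members (10.8%). In all 77 both LKO_Fasted replicates 1 and 2 were well above background, and in 29 none of replicates 3 to 6 was, so the low side of these is a bound. As bounds, the gaps of 7 of these 29 were at least 1.13-fold to at least 1.47-fold, so their place among the 77 rests on signals not well above background. Of the 30 with a gap of over 2-fold as read, 11 had such a low side. Some of their bounds were below 2-fold, the lowest at least 1.61-fold. The median level over the 77 was 7.16 and 7.18 in LKO_Fasted replicates 1 and 2 and 5.91 to 6.00 in replicates 3 to 6. It was 6.53 to 6.99 in LKO_Fed, 5.92 to 6.08 in LWT_Fed and 6.08 to 6.22 in LWT_Fasted. Replicates 1 and 2 lay a median of 0.38 above the LKO_Fed mean, and replicates 3 to 6 a median of -0.11 from the LWT_Fasted mean. The choice of the 77 pushes these arrays apart, so their places are a description.

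**Figure D4:**
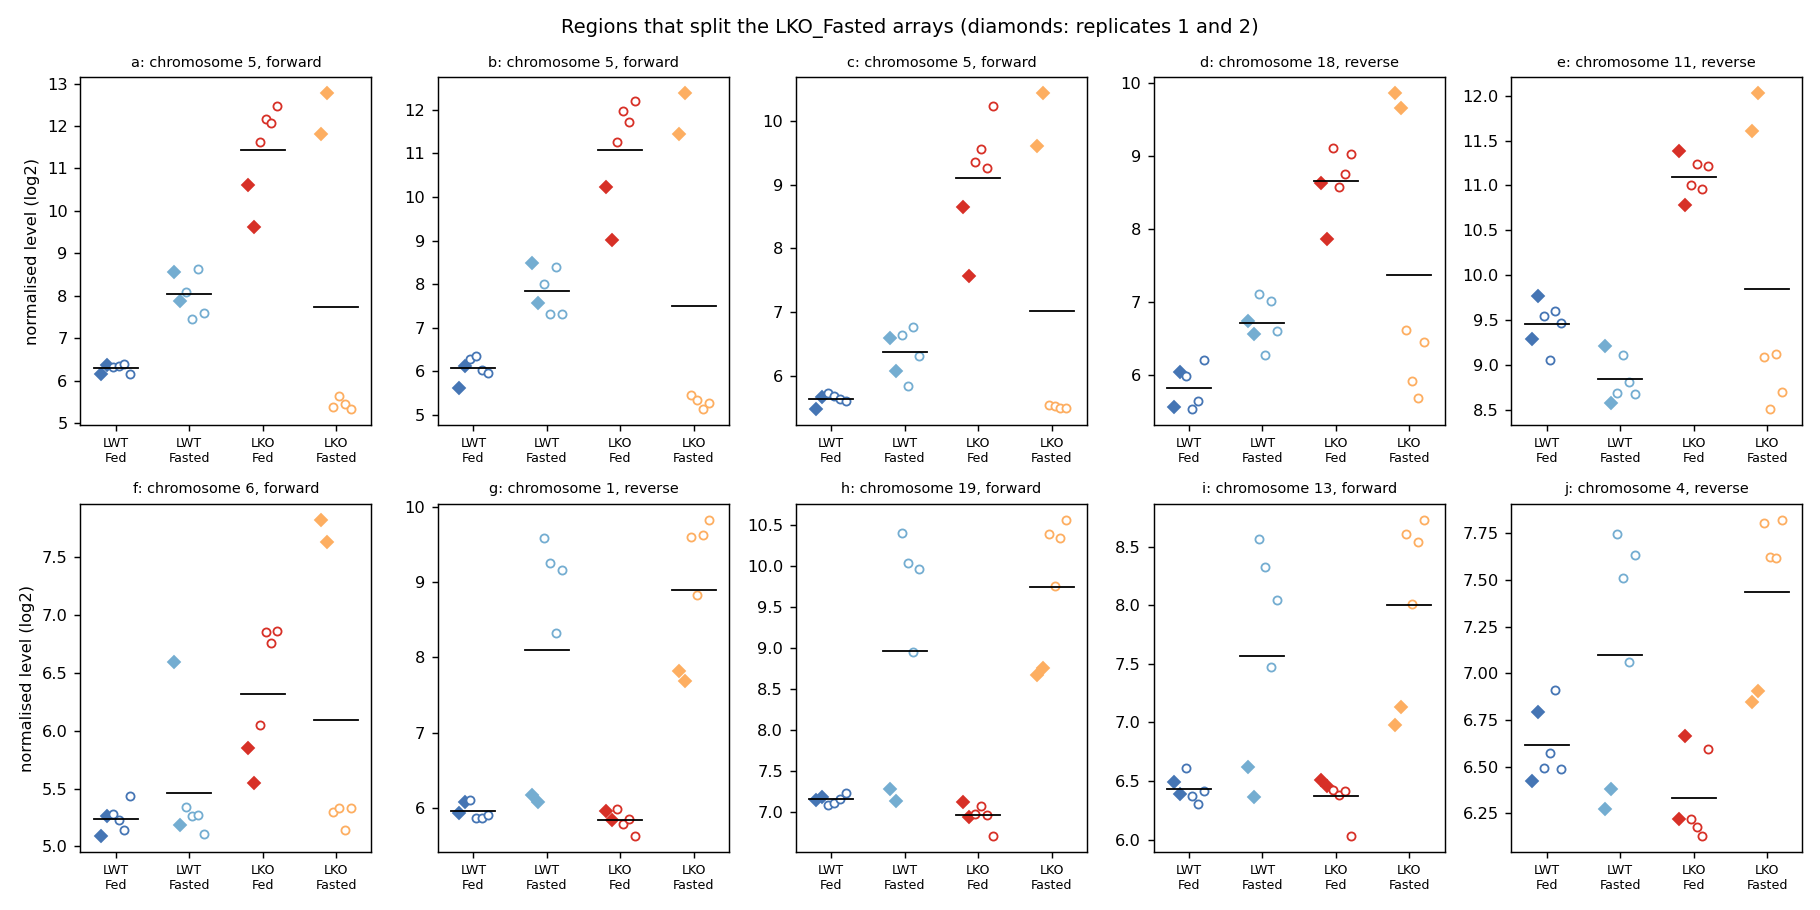
Normalised level (log2) on each of the 24 arrays, by group, for the 6 regions with the widest gap above in signal as read (a to f) and the 4 below (g to j), with the group mean as a line and replicates 1 and 2 as diamonds. Panels are chr5:14943275-14944205_F (a), chr5:15146475-15170100_F (b), chr5:15033568-15033987_F (c), chr18:3003075-3016150_R (d), chr11:60728207-60745369_R (e), chr6:140904129-140992655_F (f), chr1:64232564-64349617_R (g), chr19:61227541-61274669_F (h), chr13:23517278-23523756_F (i) and chr4:55465247-55494547_R (j), and in g to j the fasted replicates 1 and 2 of both genotypes lie below the other fasted mice.

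Most of the same regions were higher in LKO_Fed than in LWT_Fed. All 6 LKO_Fed arrays lay above all 6 LWT_Fed arrays in 63 of the 77, against 4.62% of all probes. With all arrays in the fit, 53 were called higher in LKO_Fed (2.06% of all probes were). The arrays that define the split enter the spread of that fit, and with only the 12 fed arrays in it 54 of the 77 were called higher (2.13% of all probes). None of the 77 was called between genotypes in fasted mice with all arrays, where the spread within LKO_Fasted that chose them enters the test. Without replicates 1 and 2, 2 of them were called lower in LKO_Fasted, chr5:14943275-14944205_F (adjusted p = 0.000229) and chr5:15146475-15170100_F (adjusted p = 0.000664), on replicates that were chosen as low and were not well above background. Their median log2 difference was 0.80 between LKO_Fed and LWT_Fed and 0.08 between LWT_Fasted and LWT_Fed. The median over all 2055 in fed mice was -0.00. Of the 30 with a gap of over 2-fold, 29 did not overlap in fed mice and 28 were called, or 29 with only the fed arrays in the fit. The split was known from earlier results of these data when these counts were made.

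**Figure D5:**
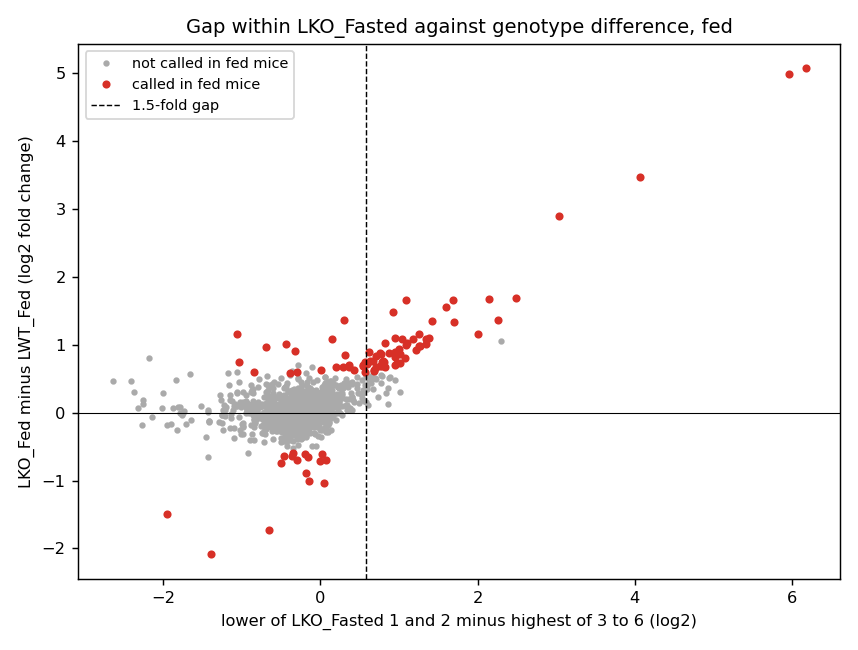
Gap within LKO_Fasted, the lower of replicates 1 and 2 minus the highest of replicates 3 to 6 (log2, x axis), against the log2 fold change of LKO_Fed over LWT_Fed (y axis) for the 2055 region probes, with probes called in fed mice in red. Right of the dashed line at a 1.5-fold gap lie 77 probes, of which 53 are red.

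The 3 regions with the widest gap lie on the forward strand of chromosome 5, also when each gap is taken as a bound. At chr5:14943275-14944205_F, LKO_Fasted replicates 1 and 2 were at 11.8 and 12.8 and replicates 3 to 6 at 5.39, 5.63, 5.45 and 5.33. None of replicates 3 to 6 was well above background there, so the gap is a bound of at least 65.7-fold, taken against the dimmest signal that counts as well above background. LWT_Fed mice were at 6.16, 6.34 and 6.40 (lowest, median, highest), LWT_Fasted at 7.46, 7.99 and 8.64, and LKO_Fed at 9.63, 11.8 and 12.5. Every LKO_Fed mouse was above every LWT mouse, and the fed difference was 5.07 ± 0.92 (adjusted p = 0.0008). chr5:15146475-15170100_F had the same pattern, with replicates 1 and 2 at 11.4 and 12.4, replicates 3 to 6 at 5.14 to 5.47, LKO_Fed at 9.01 to 12.2, LWT_Fed at 5.62 to 6.35 and LWT_Fasted at 7.32 to 8.50, and a fed difference of 4.98 ± 0.90 (adjusted p = 0.000789), with 5 of 6 LWT_Fed arrays well above background. At chr5:15033568-15033987_F no LWT_Fed array was well above background and LKO_Fed (7.57 to 10.2) was at least 10.5-fold higher (adjusted p = 0.000728).

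Whether these 3 regions were called higher on fasting in LWT depended on the arrays in the fit. With all arrays the changes in LWT were 1.63 ± 0.90 at chr5:14943275-14944205_F and 1.72 ± 0.88 at chr5:15146475-15170100_F, and neither was called. The arrays that chose these regions widen the spread of that fit. With only the 12 LWT arrays in the fit they were 1.72 ± 0.20 (adjusted p = 2.77e-05) and 1.81 ± 0.22 (adjusted p = 4.55e-05), both called. At chr5:15033568-15033987_F, where LWT_Fed was not well above background, LWT_Fasted was at least 1.58-fold higher, with an adjusted p of 0.371 with all arrays and 0.000782 with only the LWT arrays. LWT_Fed and LWT_Fasted did not overlap in any of the 3. A wider region on this strand, chr5:14923900-15062725_F, covers the first and the third, and its own probe split by at least 1.39-fold as such a bound. The nearest genes by probe position are Gm10354, Speer4c and Gm17019, all on the other strand, and none of their probes was called in any comparison.

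Regions on other chromosomes had narrower gaps. chr18:3003075-3016150_R was at 9.86 and 9.65 in LKO_Fasted replicates 1 and 2, 6.61, 5.91, 5.68 and 6.45 in replicates 3 to 6, 7.86 to 9.11 in LKO_Fed, 5.53 to 6.20 in LWT_Fed and 6.26 to 7.11 in LWT_Fasted. It was well above background on 3 of 6 LWT_Fed arrays, so its fed difference of 2.89 ± 0.49 (adjusted p = 0.000484) has no exact size, and the forward probe, chr18:3003075-3016150_F, which also split and was well above background on no LWT_Fed array, was at least 1.87-fold higher in LKO_Fed (adjusted p = 0.00583). chr11:60728207-60745369_R was at 11.6 and 12.0, then 9.09, 8.51, 9.12 and 8.69, with 10.8 to 11.4 in LKO_Fed and 9.05 to 9.77 in LWT_Fed. Its fed difference was 1.68 ± 0.39 (adjusted p = 0.00563). The probe shares 20 bases or more with 12 probes of other names, so its signal may come from more than 1 place.

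chr8:59966759-59989065_R was at 10.3 and 10.6, then 8.01, 7.78, 7.97 and 7.72, with a fed difference of 1.35 ± 0.35 (adjusted p = 0.0109). chr6:140904129-140992655_F was at 7.82 and 7.63 in LKO_Fasted replicates 1 and 2 and 5.14 to 5.33 in replicates 3 to 6. It was well above background on 5 LKO_Fed arrays and on no LWT_Fed array, so LKO_Fed was at least 1.57-fold higher. This was not called with all arrays (adjusted p = 0.0685) but was called without the 2 replicates (adjusted p = 0.00309) and with only the fed arrays in the fit (adjusted p = 0.00559). chr2:181650800-181669350_R was at 9.22 and 9.01, then 6.43 to 6.87 in replicates 3 to 6, with a fed difference of 1.67 ± 0.33 (adjusted p = 0.00184).

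A CA repeat was more common among the probes that split. The 8 letters CACACACA, sought on both strands of the probe, occurred in 37 of the 2055 region probes (1.80%) and in 447 of all 32595 probes (1.37%). They occurred in 7 of the 77 (9.09%), in 5 of the 30 with a gap of over 2-fold (16.7%) and in 8 of the 74 called higher in LKO_Fed (10.8%). Read the other way, 7 of 37 region probes with these letters split (18.9%), against 70 of 2018 without them (3.47%), and of all probes with them 86 of 447 did (19.2%). The motif was chosen after the probe sequences of the split were read, and the counts carry no test. Of the 8 regions with the widest gap in signal as read, 2 hold such a run, shown in capitals above, and the other 6 hold none.

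A few of the 77 lie close to the start of a chromosome. Of 20 members that start within the first 3500000 bases, 6 split (30%), on chromosomes 3, 4, 16 and 18, against 16 of the 147 probes of the whole table placed there (10.9%), and all 6 were called higher in LKO_Fed (2.06% of all probes). This limit was chosen after seeing the data. The 6 hold both strands of 1 stretch, and the gap of chr3:3030146-3033623_F is a bound of at least 1.32-fold. A pair of them on chromosome 16 have nearly the same probe, and 48 shared bases stand in capitals.
chr16:3111550-3130500_R: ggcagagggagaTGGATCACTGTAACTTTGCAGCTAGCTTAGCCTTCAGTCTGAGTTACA
chr16:3337275-3355950_F: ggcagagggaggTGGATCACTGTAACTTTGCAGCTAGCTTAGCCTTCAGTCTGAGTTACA

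These 2 probes differ by A12G, counted from 1 at the 5′ end of the probe with the base of the first region given first, and so they cannot be counted as separate observations. Their levels in LKO_Fasted replicates 1 and 2 were 8.33 and 7.83 for the first and 9.04 and 8.52 for the second, against 5.47 to 6.42 and 6.03 to 6.83 in replicates 3 to 6. Their fed differences were 1.35 ± 0.30 (adjusted p = 0.00349) and 1.65 ± 0.33 (adjusted p = 0.00159), with 2 and 5 of 6 LWT_Fed arrays well above background, so the first has no exact size. Over the 77, 8 probes (10.4%) share at least 20 bases with a probe of another name, against 6.86% of all members, and the median GC content was 45% in both.

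The 4 regions that split the other way were low in the fasted replicates 1 and 2 of both genotypes. Their probes are given for comparison with those above.
chr1:64232564-64349617_R: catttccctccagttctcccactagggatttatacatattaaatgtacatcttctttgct
chr19:61227541-61274669_F: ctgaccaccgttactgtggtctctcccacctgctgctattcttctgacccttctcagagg
chr13:23517278-23523756_F: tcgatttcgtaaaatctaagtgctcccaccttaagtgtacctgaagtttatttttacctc
chr4:55465247-55494547_R: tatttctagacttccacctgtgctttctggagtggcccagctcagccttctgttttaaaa

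At chr1:64232564-64349617_R, 64993 bases from Klf7, a zinc finger transcription factor gene, LKO_Fasted replicates 1 and 2 were at 7.82 and 7.69 and replicates 3 to 6 at 9.60, 8.84, 9.63 and 9.83. LWT_Fasted replicates 1 and 2 were at 6.16 and 6.07 and replicates 3 to 6 at 9.59, 9.26, 8.33 and 9.16. LWT_Fed (5.86 to 6.11) and LKO_Fed (5.62 to 5.98) lay below all of these but LWT_Fasted replicate 2, which fell within the LWT_Fed range. Fasting raised the region by 2.59 ± 0.45 in LWT (adjusted p = 8.9e-05), the largest rise of any region probe in LWT, against 3.16 ± 0.50 in LKO (adjusted p = 2.61e-05). The region was well above background on 4 of 6 arrays in each fed group. These 4 regions were chosen for low LKO_Fasted replicates 1 and 2, so leaving those out can only raise the change in LKO (to 3.76 here), and nothing is read from it.

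In the other 3, LWT_Fasted replicates 1 and 2 also lay below replicates 3 to 6. chr19:61227541-61274669_F was at 8.67 and 8.76 in LKO_Fasted replicates 1 and 2 and 9.76 to 10.6 in replicates 3 to 6, and at 7.28 and 7.14 in LWT_Fasted replicates 1 and 2 and 8.95 to 10.4 in replicates 3 to 6. It rose by 2.18 ± 0.41 in LWT (adjusted p = 0.000211), against 2.86 ± 0.46 in LKO (adjusted p = 2.9e-05). chr13:23517278-23523756_F rose by 1.40 ± 0.29 (adjusted p = 0.000538) and 1.69 ± 0.32 (adjusted p = 0.000221), and chr4:55465247-55494547_R by 0.62 ± 0.21 (adjusted p = 0.0242) and 1.16 ± 0.24 (adjusted p = 0.000398). At chr4:55465247-55494547_R, LWT_Fasted replicates 1 and 2 (6.27 and 6.38) lay below every LWT_Fed array (6.42 to 6.91). The arrays of replicates 1 and 2 were on slides 2 and 1 in LWT_Fasted and on slides 3 and 1 in LKO_Fasted, and each of these slides also held other fasted arrays. All of these replicate 1 and 2 arrays were in row 1 of their slide, as were LWT_Fasted replicate 4 and LKO_Fasted replicate 3. The other fasted arrays were in row 2, and the part of the row was not tested.

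Leaving out LKO_Fasted replicates 1 and 2 changed some counts widely. Called region probes were then 102 for fasting in LWT, 192 in LKO, 90 and 45 between genotypes in fed and fasted mice, and 108 for the interaction, where all probes gave 9.12%, 13.1%, 3.11%, 3.53% and 4.68%. For fasting in LKO 122 fell (6.93% of all probes did), 62 of them among the 77, and for the interaction 90 were more negative in LKO (3.08% of all probes), 61 of them among the 77. The 77 were chosen for low values in LKO_Fasted replicates 3 to 6, so with only those replicates left the direction of these 62 and 61 follows from the choice, and nothing is read from them. Leaving out only replicate 1 or only replicate 2 gave 74 and 84 interaction calls, and leaving out LKO_Fasted replicate 6 gave 20. With all arrays, 22 of the 77 were called lower on fasting in LKO and 7 for the interaction, values that rest on the arrays that chose them and are given as a description.

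chr9:41137539-41353289_R also belongs to the 77, with a gap of 1.93-fold, and had a called interaction. It was at 7.35, 7.55 and 7.70 in LWT_Fed, 7.92, 8.02 and 8.38 in LWT_Fasted, 8.25, 8.69 and 8.83 in LKO_Fed and 7.38, 7.61 and 8.71 in LKO_Fasted. LKO_Fed lay above LWT_Fed by 2.15-fold (adjusted p = 0.000262), and the interaction was -1.26 ± 0.25 (adjusted p = 0.00394), or -1.63 ± 0.16 without LKO_Fasted replicates 1 and 2 (adjusted p = 8.58e-07), a direction that the choice of the 77 favours.

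The 5 region probes with the highest mean signal were called in no comparison. chr1:193875525-193978800_R, which overlaps the stretch of Rcor3, a corepressor gene, on its strand, was at 17.8 to 18.4 over all 24 arrays. chr14:78924115-78938125_F, whose probe is 83.3% G and C, was at 16.9 to 17.6. The others are chr17:17481706-17482457_R (16.5 to 16.9), chr11:22681800-22707775_R (16.2 to 16.8) and chr6:116092274-116144199_F (15.6 to 16.6). Signals of different probes depend on their sequence and do not rank the abundance of the transcripts.

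Annotated long noncoding RNA genes were taken as a list beside the regions. Of 38 genes in the list 27 were measured, and 8 were called for fasting in LWT (9.04% of all probes were), 7 higher and 1 lower, and 8 in LKO (11.8% of all probes), 6 higher and 2 lower. The list was not tested against the regions or the array. Their median log2 fold change was 0.29 and 0.18. Gm15441, which is transcribed opposite to Txnip, rose by 2.20 ± 0.23 in LWT (adjusted p = 9.23e-08), against 3.10 ± 0.25 in LKO (adjusted p = 1.9e-09). Snhg3, a host of small nucleolar RNAs, rose by 1.51 ± 0.13 and 0.93 ± 0.14, and Rmrp, the RNA of the RNase MRP complex, by 1.39 ± 0.10 and 1.40 ± 0.11.

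Genotype calls in the list were 3 in fed mice (3.11% of all probes), 2 higher in LKO and 1 lower, and 4 in fasted mice (3.56% of all probes), 3 higher and 1 lower, with medians of 0.14 and 0.03. Snhg11 was lower in LKO in both states, by -1.42 ± 0.26 on the log2 scale when fed (adjusted p = 0.000779) and -1.80 ± 0.27 when fasted (adjusted p = 8.58e-05). The only interaction called in the list (2.67% of all probes were called) was that of Airn, the antisense transcript of the imprinted Igf2r locus, at 1.25 ± 0.21 (adjusted p = 0.00125). The median interaction was -0.13.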

How the data were processed

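The authors labelled liver RNA with Cy3, hybridised it to 1-colour Agilent mouse arrays of 60-base probes and read the scans with Agilent Feature Extraction 10.10.1.1, per the submitters' processing notes. The deposited scanner files give spot intensity before scaling between arrays and, per the file headers, flags (other values) for spots well above background. The deposited series matrix holds the authors' log2 values after filtering, a washing bath correction and quantile normalization. The filter's rule and the bath of each array are not given in the sources used here, and slide stood in for the bath.

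Median intensities of the 32595 matrix probes were log2 transformed and quantile normalized. Group means and slide were fitted to 24 arrays with limma 3.58.1 (lmFit, arrayWeights, eBayes; R 4.3.3), and Benjamini-Hochberg adjustment covered every probe fitted. Levels are on this log2 scale, changes are log2 fold changes ± SE from limma, and n is 6 mice per group. Calls used an adjusted p limit of 0.05 with a fold over 1.5. No value was missing for a named region, and 5 members lacked a value on at least 1 array. The fit was tested on simulated data. The number of arrays limits the precision.

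Regions were named by rule: per comparison the 5 largest called increases and decreases, outside the interaction only where groups did not overlap and 1 group was detected on all arrays, then the 6 widest splits each way, the 5 brightest probes, and the nearest gene and other probes of each named region. Others named were chosen after their values were seen. The members, gene lists and marker lists were chosen with earlier results of these data known. Positions are mm9 as the files give them, and 30 members have a probe without one. The accessions of 32994 array probes matched RefSeq (GRCm38.p6), used for names only, and 11 of the 38 noncoding genes and some markers were not in the matrix. Alternatives were another filter, background correction, scaling, the matrix values, no weights, no slide, fewer groups, a replicate block, no fold minimum, each array left out, and LKO_Fasted replicates 1 and 2 left out together.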

Additional observations from a re-analysis of the deposited data

Results flagged for a closer look

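In 13 of 172 groups of 6 arrays tested for the named regions, 1 array stood apart by Dixon's test, its gap to the nearest over the group's range exceeding the 95% critical value, and chance gives about 1 in 20 such groups. Among the widest were LWT_Fasted replicate 1 at chr6:140904129-140992655_F (0.841, level 6.59 against 5.34 for the next), LKO_Fasted replicate 4 at chr1:193875525-193978800_R (0.827), LKO_Fed replicate 6 at chr13:23517278-23523756_F (0.728) and LKO_Fasted replicate 6 at chr12:25852471-25852681_F (0.72). LKO_Fasted replicate 4 was lowest at both probes of chr6:122741562-122743423_R (0.688 at the first and 0.721 at the second), and LWT_Fasted replicate 1 was highest at the second (0.635). The others were LWT_Fed replicate 3 at chr16:23543837-23560153_F (0.716), LWT_Fed replicate 1 and LWT_Fasted replicate 2 at chr8:67542714-67561694_F (0.699 and 0.641), LWT_Fasted replicate 5 at chr8:126268510-126290810_R (0.692), LWT_Fasted replicate 2 at chr19:5834117-5835940_R (0.686) and LWT_Fasted replicate 1 at chr1:85323303-85337483_F (0.668).

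In 13 of the 43 named probes the fasting change differed between genotypes by the interaction test (2.67% of all probes were called), and 10 of the 13 were named for that call, so their number is no result. The difference, LKO minus LWT on the log2 scale, was 2.69 at chr19:5771425-5848475_F, 1.09 and 0.98 at chr17:35080914-35090009_F and its reverse strand, 1.05 at chr11:35805295-35817263_F, 0.92 at chr7:13533925-13544525_F and 0.71 at chr8:126268510-126290810_R. The 0.92 has no settled size, since 3 of its 4 groups were at or near background. It was -5.43 at chr5:14943275-14944205_F and -5.36 at chr5:15146475-15170100_F, values that average LKO_Fasted replicates 1 and 2 with replicates 3 to 6, which were not well above background, and without replicates 1 and 2 they were -7.71 and -7.56. Neither is an exact size. The others were -1.38 at chr19:5834117-5835940_R, -1.26 at chr9:41137539-41353289_R, -1.25 at chr6:129151512-129208737_R, -0.82 at chr16:23543837-23560153_F and -0.71 at chr10:116814196-116920696_R.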

How the results depend on the processing

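Under the alternatives tried, the 50 region and comparison pairs that the naming rule gave kept their direction, and 44 of them stayed called throughout. The exceptions were chr9:78107225-78118850_F (fed genotype), chr12:25852471-25852681_F (fasted genotype, with only the compared groups in the fit) and the interactions of chr11:35805295-35817263_F, chr5:14943275-14944205_F, chr5:15146475-15170100_F and chr19:5834117-5835940_R, those on chromosome 5 without LKO_Fasted replicate 5 or 6. Groups that do not overlap have 1 direction within every slide by construction. Among called region probes whose groups overlap, the direction was the same on all 3 slides for 24 of 24, 45 of 46, 9 of 9 and 19 of 19 (fasting in LWT and LKO, genotype in fed and fasted mice), and for 34 of 35 called interactions. Counts are given in the order fasting in LWT, fasting in LKO, genotype in fed, genotype in fasted, interaction. They were 97, 135, 90, 47 and 35, and with the processed signal 211, 298, 183, 101 and 66, where the interaction had 20 more positive and 46 more negative against 15 and 20. With no minimum fold change they were 499, 549, 300, 248 and 80. Normexp gave 77, 108, 64, 37 and 32. Without LKO_Fasted replicates 1 and 2 the interaction had 108. Leaving out each array in turn gave 88 to 106, 113 to 175, 79 to 99, 38 to 54 and 20 to 84, the last lowest without LKO_Fasted replicate 6 and highest without replicate 2. The split counts of 77 above and 4 below were 127 and 5 with the processed signal (2.81% and 0.169% of all probes, against 1.57% and 0.092%), 30 and 2 at 2-fold, and 346 and 272 with any gap. The causes of these shifts were not tested. Replicate numbers did not pair the arrays: of 36 same-numbered pairs 4 had a correlation of deviations over 0.1 (range -0.18 to 0.28) and 2 of 24 arrays matched their own number best. A replicate block gave 94, 134, 83, 48 and 39. With only the compared groups in the fit there is no interaction value. Dim probes limit the folds, which are bounds where a group was not well above background.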
